A study of Mus musculus with 13 samples.

Results

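The genes described here are 29 that make, take up or sense cholesterol, out of 19752 named genes on the array. They were listed by their known roles, though with earlier results of these data known. Each was followed through the probes whose RefSeq accession maps to it. They fall into 4 steps: 8 of the mevalonate steps, 11 of the sterol steps, 4 of uptake and transport and 6 that control the sterol-regulated transcription factors (SREBPs). The first 2 steps together hold 19 synthesis genes. The arrays measured RNA of adipose tissue of male C57BL/6J mice that carry Fv2E-PERK, a PERK kinase domain fused to a domain that the ligand AP20187 dimerizes, or that are wild type. The series title writes the transgene as mAP::Fv2E-PERK, and the labels used here do not spell out that promoter. White fat (WAT) came from Fv2E-PERK mice 12 h after an intraperitoneal injection of AP20187 at 100 ng/g (3 arrays), from Fv2E-PERK mice injected with vehicle (2 arrays) and from untreated wild-type mice (3 arrays). Brown fat (BAT) was taken in the same way, after AP20187 (2 arrays) or vehicle (2 arrays), and always from transgenic mice. The labels' protocol speaks of muscles, although each sample is labelled white or brown fat. No wild-type mouse received AP20187, so the ligand and the activated kinase cannot be told apart. One further array carries contradictory tissue labels and entered no group.

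Cells build cholesterol from acetyl-CoA, first through mevalonate to farnesyl diphosphate and then through squalene and lanosterol. When membrane sterol in the endoplasmic reticulum (ER) is low, SCAP carries the SREBP precursors to the Golgi, where proteases release a fragment that enters the nucleus and raises transcription of synthesis and uptake genes. When sterol is high, the INSIG proteins hold SCAP in the ER. PERK is an ER stress kinase that phosphorylates the translation factor eIF2α. Adipocytes hold much of the body's free cholesterol in the membrane of the lipid droplet and in the plasma membrane.

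Levels are log2 signals set against the 75th percentile of their own array, so a level of 0 is the signal at that percentile and a difference of 1 is a doubling. Levels of different genes are not comparable with each other, since each rests on its own probe. All 29 members passed the filter on dim probes. Among the 12 grouped arrays, 46.4 to 64.0% of spots were well above background. In white fat the share was lower with AP20187, 49.0 to 51.5%, than with vehicle, 61.2 to 64.0%, or in wild type, 57.9 to 60.6%. On the BAT arrays it was 46.4% with AP20187 and 46.8 to 49.0% with vehicle. The part of this gap in the members' changes was not tested. Skeletal muscle, epididymis and other marker lists were read on each array. The 6 brown adipocyte markers averaged 7.0 to 8.52 on the BAT arrays, against -0.54 to 1.81 on the WAT arrays. Means of markers are over those measured on all 12 arrays. The adipocyte markers averaged 6.61 to 7.80 on the WAT arrays and 6.10 to 6.33 on the BAT arrays. WAT AP20187 array 1 stood apart. The 8 epididymis markers measured on it were all well above background and averaged 7.67, against -5.05 and -0.52 on the other AP20187 arrays, -5.62 and -5.59 on the vehicle arrays and -5.65 to -3.93 on the wild-type arrays. The value of -0.52 is that of AP20187 array 2, where 9 of all 10 were well above background. That count was 1 on AP20187 array 3, 2 on each vehicle array and 3, 1 and 5 on wild-type arrays 1, 2 and 3. Crisp1, an epididymis marker left out of the mean, measured -0.4, -5.1 and 6.7 on the wild-type arrays. On array 1 the adipocyte, macrophage and endothelial means were 6.61, -0.13 and 0.23, against 6.82 to 7.80, 1.64 to 2.64 and 1.63 to 2.06 on the other WAT arrays. The macrophage mean rests in large part on Csf1r, at -0.97, against 5.05 to 5.97 on the other WAT arrays. The endothelial mean does so on Emcn, at -3.59, against 0.45 to 1.04. The other markers in these 2 means were also lowest on array 1, by smaller amounts, except Adgre1. The liver markers averaged 4.35 on vehicle array 2, against -1.17 to 1.83 on the other WAT arrays, and the skeletal muscle markers -0.77 on AP20187 array 2, against -3.91 to -2.64. Vehicle array 2 is 1 of the 2 WAT vehicle arrays, and the part of liver and muscle RNA in the members' levels was not tested. Areas of weak signal covered 9.25, 8.50 and 1.96% of the spots on WAT AP20187 arrays 1, 2 and 3, and none elsewhere. Eif2ak3, the gene of PERK itself, measured 1.40, 1.13 and 1.23 on the WAT AP20187 arrays, 0.93 and 1.16 on the WAT vehicle arrays and 0.89, 1.0 and 1.17 on the wild-type arrays. In BAT it measured 1.17 and 1.16 with AP20187 and 0.93 and 0.90 with vehicle. Whether its probe also reads the transgene was not tested.

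In white fat given AP20187, nearly all cholesterol synthesis genes measured higher than in white fat given vehicle, by about 2-fold at the median, but no single gene passed the test. Of the 29 members, 27 had a log2 change above 0, with a median of 0.98 (1.97-fold), while the median over all 24459 features was 0.15 and 58.8% of them were above 0. None of the 29 passed an adjusted p of 0.05 in limma (Benjamini-Hochberg over all features), where 2.24% of all features did. Of these features 428 rose and 120 fell, but 7 rose and 220 fell when the arrays were scaled to the percentile of the probes detected on all of them. The smallest adjusted p was 0.0553, for Fdps. At an unadjusted p under 0.05, 16 members were higher and 0 lower, against 16.2 and 6.08% of all features. All AP20187 arrays that measured the gene lay above both vehicle arrays for 21 of the 29, against 26.2% of all features, and below both for 0, against 12.3%. Among the 21, Acat2, Nsdhl and Npc2 were measured on 2 AP20187 arrays. For the same 21 genes the AP20187 arrays also lay above all 3 wild-type arrays, and thus above all 5 white fat arrays without AP20187. The 5 arrays without AP20187 lay close together, with a range per member of 0.14 to 0.85 and a median range of 0.49. In bulk tissue, fewer cells of a type and less RNA per cell cannot be told apart, and since no label states that each array is a separate mouse, the p-values rest on array-to-array spread alone.

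**Figure D1:**
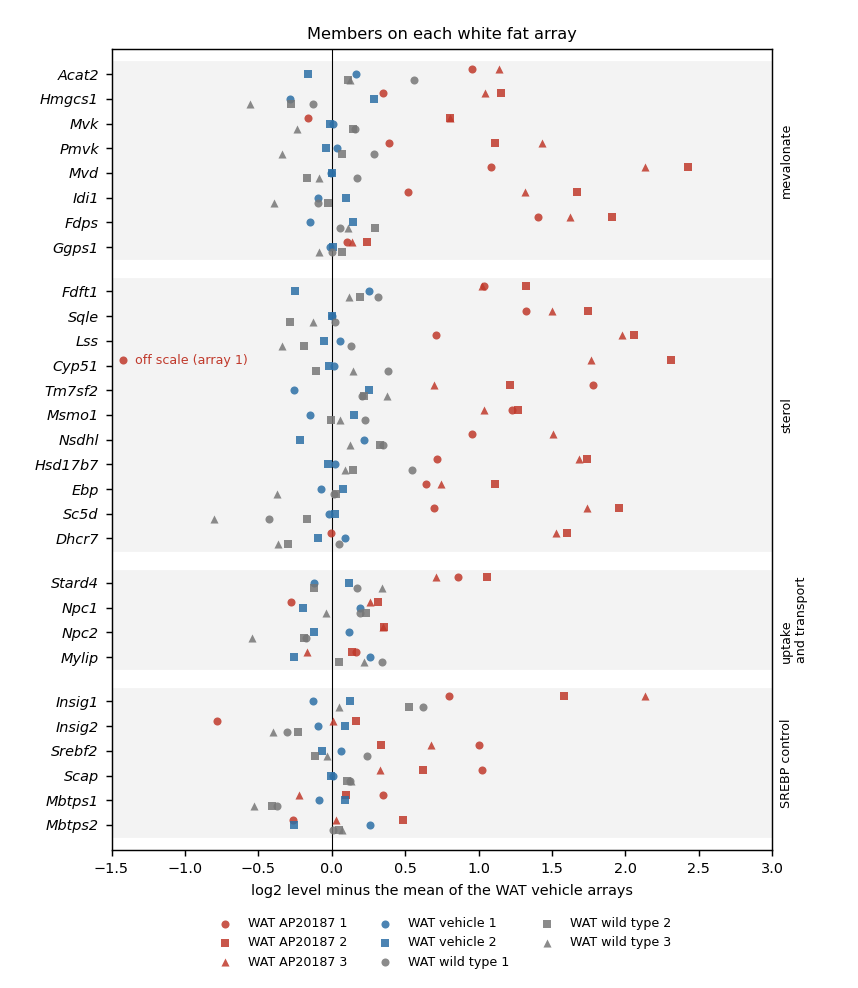
Each point is 1 white fat array. The horizontal axis gives the log2 level of a member minus the mean of the 2 WAT vehicle arrays, in red for AP20187, blue for vehicle and grey for wild type, and members run down the page by step. The AP20187 points of 21 of the 29 members lie right of all blue and grey points, and the Cyp51 point of AP20187 array 1, at a level of -6.40, lies off the scale and is drawn at its left edge.

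All 8 mevalonate genes had a change above 0, with a median of 1.01. Hmgcs1, the cytosolic synthase that makes hydroxymethylglutaryl-CoA, measured 6.65, 7.45 and 7.34 on the AP20187 arrays, against 6.01 and 6.59 on the vehicle arrays. The groups did not overlap, though AP20187 array 1 lay only just above vehicle array 2. Its change was 0.85 (1.80-fold, SE 0.28, limma adjusted p = 0.136). Mvd, the decarboxylase that yields isopentenyl diphosphate, measured 2.21, 3.55 and 3.26 with AP20187, against 1.12 and 1.13 with vehicle, and had the largest change of any member, 1.88 (3.69-fold, SE 0.60). Idi1, the isomerase of the next step, measured 3.69, 4.84 and 4.49 with AP20187, against 3.08 and 3.27 with vehicle, a change of 1.17 (2.25-fold, SE 0.44). In all 3 of these genes AP20187 array 1 was the lowest of its group and still above both vehicle arrays. Fdps, the farnesyl diphosphate synthase from which the sterol and isoprenoid branches part, measured 5.94, 6.44 and 6.16 with AP20187, against 4.39 and 4.68 with vehicle. The gap between its groups, over 1 log2 unit, exceeded the spread within either one. The change was 1.65 (3.13-fold, SE 0.37, 95% interval 0.80 to 2.49, limma adjusted p = 0.0553). Acat2, which condenses acetyl-CoA, had a change of 1.05 over the 2 AP20187 arrays on which it was measured, and the kinases Pmvk and Mvk had changes of 0.98 and 0.48. Ggps1, which leads into the geranylgeranyl branch and away from sterols, had the smallest change of this step, 0.16.

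Among the 11 sterol genes 10 had a change above 0, with a median of 1.23, the largest of the 4 steps. Tm7sf2, a sterol reductase, measured 4.33, 3.76 and 3.24 with AP20187, against 2.29 and 2.80 with vehicle, a change of 1.23 (2.35-fold, SE 0.35, limma adjusted p = 0.0933). Hsd17b7, the ketoreductase that acts while the C4 methyl groups are removed, measured 0.13, 1.15 and 1.09 with AP20187, against -0.57 and -0.61 with vehicle, a change of 1.38 (2.60-fold, SE 0.40, limma adjusted p = 0.0961). Ebp, the sterol isomerase, measured 6.08, 6.55 and 6.18 with AP20187, against 5.36 and 5.51 with vehicle, a change of 0.83 (1.78-fold, SE 0.23, limma adjusted p = 0.0829). In none of the 3 did the groups overlap, and Tm7sf2 alone was highest on AP20187 array 1. Sqle, the squalene epoxidase, measured 4.32, 4.74 and 4.49 with AP20187, against 3.0 and 2.99 with vehicle, a change of 1.52 (2.87-fold, SE 0.64). Msmo1, the C4 methyl sterol oxidase, measured 4.76, 4.80 and 4.57 with AP20187, against 3.38 and 3.68 with vehicle, a change of 1.18 (2.27-fold, SE 0.38). Both were nearly level within each white fat group and well apart between them. Their SE is set by the pooled spread of all 5 groups, and in BAT both genes varied widely. The change was 1.58 for Lss, the lanosterol synthase, 1.46 for Sc5d, a sterol desaturase, and 1.13 for Fdft1, the squalene synthase (dimmer probe 0.3). It was 1.23 for Nsdhl, a sterol dehydrogenase measured on 2 AP20187 arrays, and 1.04 for Dhcr7, a reductase of a late step. Of these 5, Dhcr7 was the 1 whose groups overlapped, through AP20187 array 1 at 0.30, against 1.91 and 1.83 on AP20187 arrays 2 and 3 and 0.40 and 0.21 on the vehicle arrays. Cyp51, the lanosterol demethylase, was the 1 sterol gene with a change below 0, -0.81 (SE 2.19). It measured -6.40, 2.40 and 1.86 with AP20187, against 0.11 and 0.08 with vehicle, and the low spot lay in an area of weak signal. Without that array its change was 2.04 (limma adjusted p = 0.0565), and without all weak areas it was 1.90 (limma adjusted p = 0.107).

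The 4 uptake and transport genes had a median change of 0.23, and 2 of them were apart between the groups. Stard4, a cytosolic sterol carrier that SREBPs are known to induce, measured 1.27, 1.47 and 1.12 with AP20187, against 0.29 and 0.53 with vehicle. Its 3 AP20187 arrays lay above the vehicle arrays without overlap, with a change of 0.87 (1.83-fold, SE 0.26, limma adjusted p = 0.107). Npc2, which hands cholesterol to NPC1 inside the lysosome, measured 6.47 on both AP20187 arrays that read it, against 6.24 and 6.00 with vehicle, a change of 0.35. Npc1, the membrane protein of that export step, measured -0.70, -0.10 and -0.15 with AP20187, against -0.22 and -0.61 with vehicle, and its groups overlapped (change 0.10, SE 0.22). Mylip, the ubiquitin ligase that sends lipoprotein receptors to degradation and is induced by liver X receptors, measured 2.15, 2.12 and 1.82 with AP20187, against 2.24 and 1.73 with vehicle, and also overlapped (change 0.04, SE 0.32). The signs of the changes of Npc1, Npc2 and Mylip, as well as Cyp51, Ggps1, Mbtps1 and Mbtps2, turned under at least 1 other scaling of the arrays.

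Of the 6 SREBP control genes, the paralogs Insig1 and Insig2 had the highest and the lowest change. Insig1, itself a known SREBP target, measured 2.55, 3.34 and 3.89 with AP20187, against 1.63 and 1.88 with vehicle, with no overlap and a change of 1.50 (2.84-fold, SE 0.56, limma adjusted p = 0.170). Insig2 measured 2.41, 3.36 and 3.20 with AP20187, against 3.10 and 3.29 with vehicle, with overlapping groups and a change of -0.20 (SE 0.26). Without AP20187 array 1 that change was 0.08, and Mbtps1, at -0.06, had the lowest of the 6. The difference between the paralogs was not tested. Srebf2, which encodes the SREBP that acts mainly on sterol genes, measured 0.48, -0.19 and 0.16 with AP20187, against -0.46 and -0.58 with vehicle, a change of 0.67 (1.59-fold, SE 0.29). Both of its spots on AP20187 array 1 lay in a weak area, and without weak areas the change was 0.37. Scap, the escort protein, measured 4.63, 4.23 and 3.93 with AP20187, against 3.61 and 3.60 with vehicle, a change of 0.66 (1.58-fold, SE 0.22). The groups of Srebf2 and of Scap did not overlap. Mbtps1 and Mbtps2, the Golgi proteases, had changes of 0.08 each and overlapped.

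The AP20187 arrays were not alike. Of the 17 synthesis genes measured on all 3, array 2 was highest for 14 and array 1 lowest for 14. Over these 17 the median level was 4.11, 4.74 and 4.49 on AP20187 arrays 1, 2 and 3, against 3.0 and 2.99 on the vehicle arrays and 3.02, 2.76 and 2.86 on the wild-type arrays. All 3 AP20187 medians thus lay above the 5 others. The epididymis markers, given above, were high on the array with the lowest synthesis values for most genes and at an intermediate level on the array with the highest, and their part in these levels was not tested. Without array 1 the median change of the 29 was 1.14, and 5 members rose past the threshold: Hsd17b7 by 1.71, Hmgcs1 by 1.1, Fdps by 1.77, Dhcr7 by 1.56 and Ebp by 0.93, with limma adjusted p-values of 0.0354 to 0.0488. In that fit 7.65% of all features rose. Without arrays 1 and 2 it was 1.04 with 0 members past the threshold. That fit sets array 3, on which only 1 epididymis marker was well above background, against the vehicle arrays, and it takes the spread of a single array from the other groups. The AP20187 arrays share their slide with vehicle array 2 alone, and within that slide the median change was 0.98, with 0 members past the threshold.

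**Figure D2:**
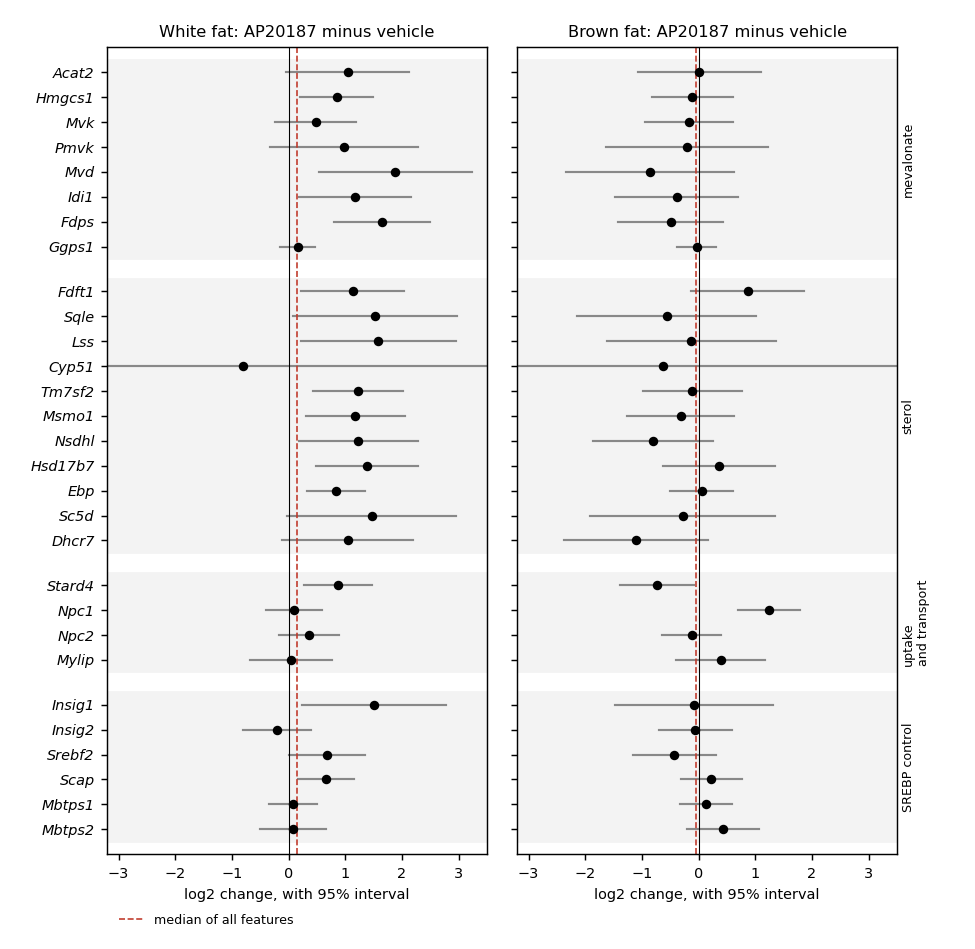
The left panel gives the log2 change of each member between AP20187 and vehicle in white fat, and the right panel the same in brown fat. Points are limma estimates, lines are 95% intervals, and the dashed line is the median of all features (0.15 in white fat and -0.04 in brown fat). In white fat the synthesis genes lie mostly between 0.8 and 1.9, in brown fat mostly below 0 with wide intervals, and the Cyp51 intervals run beyond the axes.

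The DNA just upstream of the gene starts is shown because so many of these genes measured higher together. SREBPs bind weakly alone and are known to act with neighbours such as NF-Y, which reads the CCAAT box, and SP1, which reads the GC box. RefSeq promoter windows (GRCm38.p6, 250 bases before to 50 after the start) were at hand for 24 of the 29 members. The 5 windows below were chosen for different reasons. Hmgcs1 is the 1 member whose window held the sterol regulatory element searched. Ebp, with Hmgcs1, passed the test in AP20187 against wild type, though under no other scaling of the arrays, as described further on. Idi1 and Insig2 are the members whose windows held the C/EBP-ATF element, the kind of site through which ATF4 acts downstream of PERK, and Insig1 is shown beside its paralog. The windows lie at chr13:119690101-119690400 (plus strand, Hmgcs1), chrX:8193463-8193762 (minus strand, Ebp), chr13:8885356-8885655 (plus strand, Idi1), chr5:28071162-28071461 (plus strand, Insig1) and chr1:121332540-121332839 (minus strand, Insig2, 1 of 3 windows of that gene). Each is printed 5′ to 3′ along its gene, and capitals mark the CCAAT box (CCAAT or ATTGG), the sterol regulatory element (TCACNCCAC or its reverse complement) and the C/EBP-ATF element (TGATGNAA or TTNCATCA).
Hmgcs1: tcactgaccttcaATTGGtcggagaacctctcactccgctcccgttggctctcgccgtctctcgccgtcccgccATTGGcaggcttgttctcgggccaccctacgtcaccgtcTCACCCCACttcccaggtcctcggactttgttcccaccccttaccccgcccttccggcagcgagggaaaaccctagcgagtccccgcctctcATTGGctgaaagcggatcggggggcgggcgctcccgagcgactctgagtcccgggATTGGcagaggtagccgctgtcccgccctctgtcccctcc
Ebp: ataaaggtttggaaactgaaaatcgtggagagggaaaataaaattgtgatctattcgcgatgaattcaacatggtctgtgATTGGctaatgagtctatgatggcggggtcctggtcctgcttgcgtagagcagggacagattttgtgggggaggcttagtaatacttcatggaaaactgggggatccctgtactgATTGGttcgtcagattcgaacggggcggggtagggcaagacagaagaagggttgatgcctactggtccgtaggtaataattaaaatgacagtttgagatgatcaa
Idi1: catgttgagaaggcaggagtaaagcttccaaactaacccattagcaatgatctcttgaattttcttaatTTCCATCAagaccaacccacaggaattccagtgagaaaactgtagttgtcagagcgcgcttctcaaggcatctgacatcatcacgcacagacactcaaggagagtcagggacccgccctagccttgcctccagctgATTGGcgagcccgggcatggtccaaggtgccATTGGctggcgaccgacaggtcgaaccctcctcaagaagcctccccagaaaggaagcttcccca
Insig1: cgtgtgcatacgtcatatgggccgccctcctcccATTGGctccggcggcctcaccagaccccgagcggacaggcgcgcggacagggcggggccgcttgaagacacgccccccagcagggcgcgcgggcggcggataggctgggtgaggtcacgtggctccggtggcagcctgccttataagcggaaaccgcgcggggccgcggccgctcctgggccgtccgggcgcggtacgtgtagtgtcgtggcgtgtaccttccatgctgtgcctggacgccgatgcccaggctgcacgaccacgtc
Insig2: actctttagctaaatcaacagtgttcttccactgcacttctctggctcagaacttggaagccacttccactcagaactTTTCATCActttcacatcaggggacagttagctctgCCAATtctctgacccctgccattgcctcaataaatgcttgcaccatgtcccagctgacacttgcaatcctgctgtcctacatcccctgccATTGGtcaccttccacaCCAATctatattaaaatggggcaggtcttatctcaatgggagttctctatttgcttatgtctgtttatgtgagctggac
The Hmgcs1 window held 4 CCAAT boxes and a TCACCCCAC that begins 137 bases before the start. In these 5 windows no capitalised match overlapped another. Of the Insig2 windows, the one with the most CCAAT boxes, 3, was printed. The others held 0 CCAAT boxes, and 1 of them also held the C/EBP-ATF element.

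On either strand, the CCAAT box was found in 20 of the 24 members (83.3%), against 41.1% of the 27025 genes with a window. The members without it were Acat2, Scap, Mbtps1 and Mbtps2. The GC box GGGCGG was found in 21 (87.5%), against 38.2%, and the E box CACGTG in 5 (20.8%), against 8.09%. The sterol regulatory element was found in 1 member (4.17%), against 1.44% of genes, and the C/EBP-ATF element in 2 (8.33%), against 4.51%. Promoters rich in C and G hold GC boxes by composition, and the members were not matched for it. These matches describe letters in a window and are neither shown sites nor a cause of the levels.

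In brown fat given the same ligand most members had a change below 0, and no member passed the test. Of the 29 members, 9 had a change above 0, with a median of -0.13, against a median of -0.04 over all features, of which 45.5% were above 0. None passed the limma threshold, where 2 features did in all (0.00818%). At an unadjusted p under 0.05, Npc1 was higher and Stard4 lower, against 3.7 and 3.67% of all features. The AP20187 arrays both lay above both vehicle arrays for 3 members, Npc1, Mbtps1 and Mbtps2, against 15.8% of all features. They lay below for 2, Dhcr7 and Stard4, against 21.6%.

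Npc1 had the largest change of the members in brown fat. It measured 1.23 and 1.33 on the AP20187 arrays, against 0.03 and 0.05 on the vehicle arrays. The arrays of each group lay close together, and the groups did not overlap. The change was 1.24 (2.36-fold, SE 0.24, 95% interval 0.70 to 1.78, unadjusted p = 0.000614, limma adjusted p = 0.280). In fits that left out 1 brown fat array in turn it stayed between 1.19 and 1.29. Stard4 measured -0.61 and 0.25 with AP20187, against 0.56 and 0.55 with vehicle. Both AP20187 arrays lay lower, by unequal amounts, for a change of -0.73 (SE 0.29, limma adjusted p = 0.606), and without AP20187 array 1 it was -0.30. Dhcr7 measured 0.39 and -0.24 with AP20187, against 1.75 and 0.62 with vehicle, a change of -1.11 (SE 0.56, limma adjusted p = 0.737). Fdft1 measured 5.37 and 4.92 with AP20187, against 5.07 and 3.49 with vehicle, a change of 0.87 (SE 0.44, limma adjusted p = 0.741). Its groups overlapped, since vehicle array 2 lay above AP20187 array 2. The dimmer probe of Fdft1 had a change of the other sign, -0.83.

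**Figure D3:**
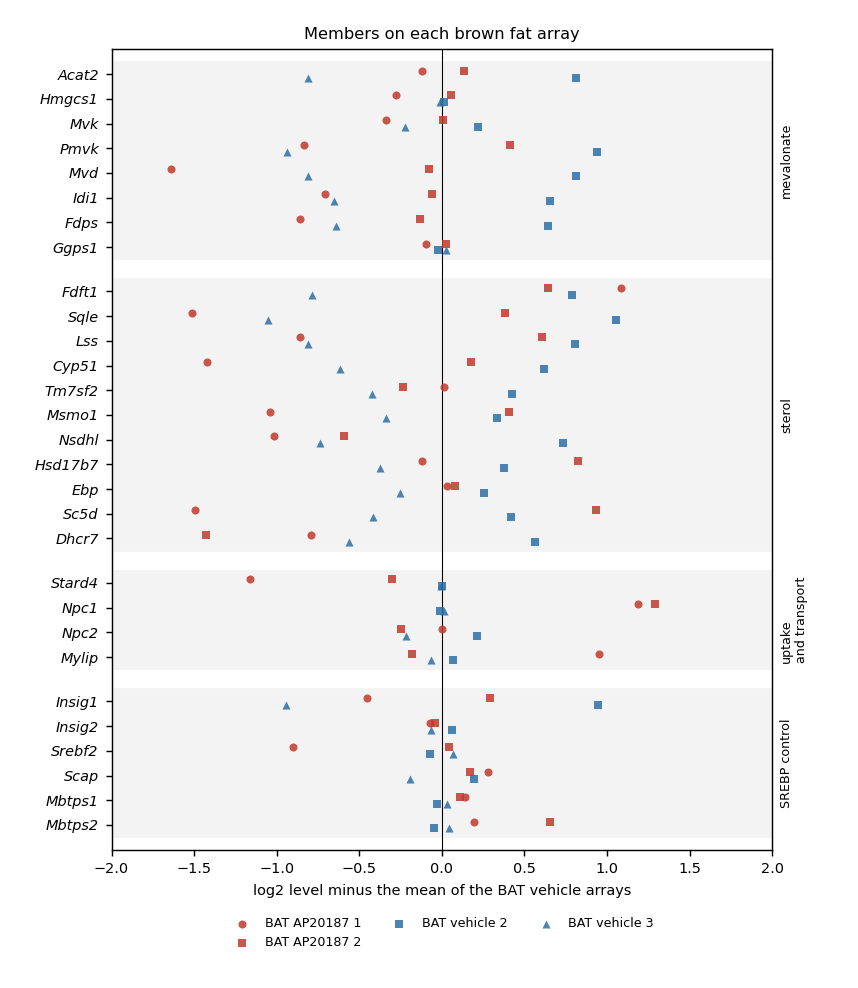
Each point is 1 brown fat array, and the horizontal axis gives the log2 level of a member minus the mean of the 2 BAT vehicle arrays, in red for AP20187 and blue for vehicle. The vehicle points of most synthesis genes lie far apart with the AP20187 points on both sides of the mean, while Npc1 is parted cleanly.

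For the other 18 synthesis genes, Fdft1 among them, the AP20187 and vehicle arrays overlapped. Hmgcs1 measured 5.74 and 6.07 with AP20187, against 6.03 and 6.00 with vehicle. Idi1 measured 2.88 and 3.53 with AP20187, against 4.25 and 2.94 with vehicle. Fdps measured 4.24 and 4.96 with AP20187, against 5.74 and 4.45 with vehicle. Of these 3, Hmgcs1 was nearly level, while Idi1 and Fdps were highest on vehicle array 2. Sqle measured 1.67 and 3.56 with AP20187, against 4.23 and 2.13 with vehicle. Cyp51 measured -1.17 and 0.43 with AP20187, against 0.87 and -0.37 with vehicle. Msmo1 measured 2.38 and 3.83 with AP20187, against 3.76 and 3.09 with vehicle. All 3 were lowest on AP20187 array 1, and their groups overlapped. Over the 19 synthesis genes, vehicle array 2 lay above vehicle array 3 for 18, by a median of 1.24 (-0.05 to 2.11), was the highest of the 4 arrays for 13, and AP20187 array 1 was the lowest for 12. The median level of the synthesis genes was 2.38 and 3.53 on the AP20187 arrays, against 3.81 and 2.19 on the vehicle arrays. The skeletal muscle markers averaged 4.03 and 3.08 on the AP20187 arrays, against 0.59 and 4.80 on the vehicle arrays, so the array with the lowest muscle markers had the highest synthesis median and the array with the highest had the lowest. All 6 muscle markers were well above background on 3 of the BAT arrays and 5 on vehicle array 2. The brown adipocyte markers averaged 7.87 and 8.52 with AP20187, against 8.48 and 7.0 with vehicle. The last value rests largely on Elovl3, at 3.74 and 5.96 with AP20187, against 6.3 and -0.84 with vehicle. Ppargc1a was higher on vehicle array 3 (2.37) than on vehicle array 2 (1.48), and the other markers were lower there by smaller amounts than Elovl3. The part of muscle RNA in these levels was not tested. With so few arrays 1 of them set the direction: the median change of the 29 was 0.15 without vehicle array 2 and 0.08 without AP20187 array 1, but -0.54 without vehicle array 3 and -0.34 without AP20187 array 2.

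**Figure D4:**
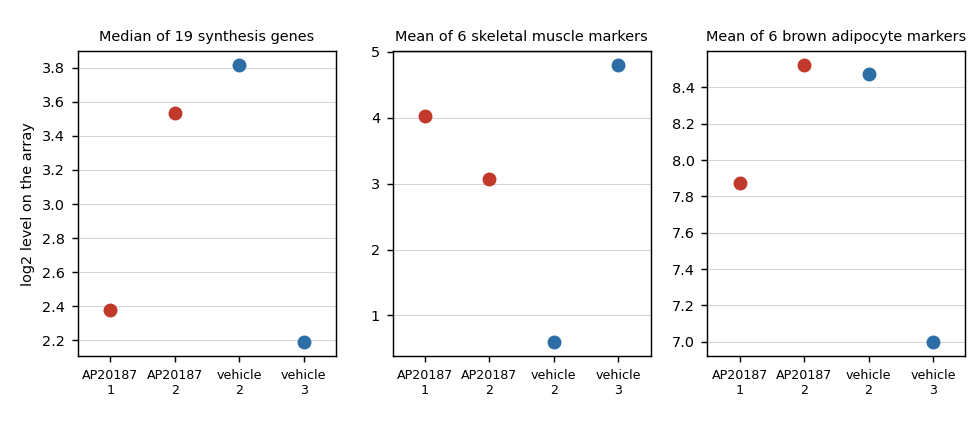
For each brown fat array, the vertical axis gives the mean or median log2 level of a gene group: the 19 synthesis genes (median), the skeletal muscle markers and the brown adipocyte markers (means). Vehicle array 2 has the highest synthesis median, 3.81, and the lowest muscle mean, 0.59, while vehicle array 3 has the lowest synthesis median, 2.19, and the highest muscle mean, 4.80.

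Of the SREBP control genes in brown fat, Insig1 measured 2.15 and 2.89 with AP20187, against 3.54 and 1.66 with vehicle, which is the order of the arrays by their synthesis medians. Insig2 measured 2.60 and 2.63 with AP20187, against 2.74 and 2.61 with vehicle, and was nearly level. Srebf2 measured -1.02 and -0.08 with AP20187, against -0.19 and -0.05 with vehicle. Its groups overlapped, with AP20187 array 1 the lowest. Mylip, of the uptake and transport step, measured 3.19 and 2.05 with AP20187, against 2.30 and 2.17 with vehicle, so its AP20187 arrays lay on either side of the vehicle arrays.

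The difference between the tissues was itself tested, as the change in white fat minus the change in brown fat. It was above 0 for 23 of the 29 members, with a median of 1.04, against a median of 0.16 over all features, of which 58.3% were above 0. No member passed the limma threshold, and neither did any feature (0% of 24459). At an unadjusted p under 0.05, 10 members had the higher change in white fat and 1 in brown fat, against 12 and 4.48% of all features. The smallest p was that of Stard4, whose change was 0.87 in white fat and -0.73 in brown fat, a difference of 1.61 (SE 0.39, limma adjusted p = 0.142). It was the 1 member whose groups lay apart in opposite directions in the tissues, higher with AP20187 in white fat and lower in brown fat, against 7.04% of all features. Fdps followed with 1.65 in white fat and -0.49 in brown fat, a difference of 2.14 (SE 0.55, limma adjusted p = 0.142). Mvd, which measured -0.34 and 1.22 on the BAT AP20187 arrays and 2.11 and 0.49 on the BAT vehicle arrays, had a difference of 2.74 (SE 0.88, limma adjusted p = 0.182). Npc1 was the 1 member with the larger change in brown fat at that unadjusted level, a difference of -1.14 (SE 0.32, limma adjusted p = 0.151). All brown fat arrays lie on 1 slide that holds no white fat array, so tissue and slide cannot be told apart in level, though each change was taken within a tissue. The brown fat change lies within that slide. The white fat change runs partly across slides, since the AP20187 arrays share theirs with vehicle array 2 and not with vehicle array 1. The median difference was between 0.63 and 1.40 when any 1 array was left out.

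Against untreated wild-type white fat, 3 members rose past the threshold in AP20187-treated Fv2E-PERK white fat: Ebp, Hmgcs1 and Fdps. The share of features called either way was 8.87%, and 7.2% rose. The calls depend on the scaling of the arrays: with each of 4 others 0 members passed and 0.278 to 0.609% of features rose. Of all features 1762 rose and 407 fell, against 103 and 1021 with the percentile of detected probes and 88 and 568 with the authors' value table. This comparison shares the AP20187 arrays with the one above and is no independent support for it. Ebp measured 5.46, 5.47 and 5.07 on the wild-type arrays, all below its AP20187 arrays, and the change was 0.94 (1.92-fold, SE 0.20, limma adjusted p = 0.0319). Hmgcs1 measured 6.17, 6.02 and 5.74 on the wild-type arrays, also below all of its AP20187 arrays, with a change of 1.17 (2.25-fold, SE 0.25, limma adjusted p = 0.0330). Fdps measured 4.59, 4.83 and 4.64 there, with a change of 1.49 (2.81-fold, SE 0.33, limma adjusted p = 0.0338). Mvd, at 1.30, 0.95 and 1.04 on the wild-type arrays, came next with a change of 1.91 (SE 0.53, limma adjusted p = 0.0571). In all, 26 of 29 members had a change above 0, with a median of 0.94, while 60% of all features were above 0. At an unadjusted p under 0.05, 19 were higher and 0 lower, against 21.5 and 7.06% of all features. The AP20187 and wild-type arrays lie on different slides, which meet only through the vehicle arrays. With slide as a fixed block 0 members and 0 features passed. No member passed without AP20187 array 2, without AP20187 array 3 or without any single wild-type array, where 0.0409, 3.98 and 0% of features rose. Without AP20187 array 1, 12 members rose, against 18.5% of features, and without any single brown fat array 6 or 7 did, against 5.85 to 6.62%.

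For 23 of the 29 members the vehicle and wild-type white fat arrays overlapped. Of the 29 members, 12 had a change above 0 in Fv2E-PERK mice given vehicle, with a median of -0.03, where 52.6% of all features were above 0, and none passed the threshold, against 0.0245% of all features. At an unadjusted p under 0.05, 1 member was higher, against 3%, with 0 lower, against 2.03%. That was Mbtps1, which measured 4.64 and 4.82 on the vehicle arrays, against 4.35, 4.32 and 4.20 on the wild-type arrays, a change of 0.44 (SE 0.19, limma adjusted p = 0.968). Npc2 measured 6.24 and 6.00 with vehicle, against 5.94, 5.93 and 5.57 in wild type, a change of 0.30. Insig2 measured 3.10 and 3.29 with vehicle, against 2.89, 2.96 and 2.79 in wild type, a change of 0.31. In these 3 genes the vehicle arrays all lay above the wild-type arrays, and 4 members in all did so, against 19.5% of all features. Both vehicle arrays lay below all wild-type arrays for 2, Hsd17b7 and Scap, against 15.3%. Hmgcs1, with a change of 0.32 (SE 0.28), overlapped. For the other genes given by array, the wild-type values follow. Idi1 measured 3.08, 3.14 and 2.78 there, Sqle 3.02, 2.71 and 2.86, and Msmo1 3.76, 3.52 and 3.58. Cyp51 measured 0.48, -0.01 and 0.24 on the wild-type arrays, Stard4 0.59, 0.29 and 0.76, and Insig1 2.37, 2.29 and 1.81. Srebf2 measured -0.28, -0.63 and -0.55, Npc1 -0.23, -0.19 and -0.45, and Mylip 2.33, 2.04 and 2.20. In all 9 of these genes the vehicle and wild-type arrays overlapped.

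Between the tissues given vehicle, 1 member passed the threshold. Fdft1, which commits farnesyl diphosphate to sterols, measured 5.07 and 3.49 in BAT, against 2.70 and 2.20 in WAT, and was higher in BAT by 1.83 (3.55-fold, SE 0.44, limma adjusted p = 0.0178). With the mean of a gene's probes no member passed. In this comparison 23.4% of all features passed, 14.3% higher and 9.17% lower in BAT. That split was 3491 higher and 2243 lower, against 2682 and 3395 with the percentile of detected probes and 2740 and 2599 with the authors' value table. Acat2 measured 3.81 and 2.19 in BAT, against 1.65 and 1.32 in WAT, a difference of 1.52 (SE 0.47, limma adjusted p = 0.0513). Scap measured 4.33 and 3.94 in BAT, against 3.61 and 3.60 in WAT, a difference of 0.53. Npc1, at 0.03 and 0.05 in BAT against -0.22 and -0.61 in WAT, differed by 0.46 (SE 0.24). In all 4 both BAT arrays lay above both WAT arrays. That was so for 8 of the 29 members, and 5 lay below, against 39 and 30% of all features. In all, 20 members were above 0, against 54.9% of all features, and at an unadjusted p under 0.05 there were 2 higher and 0 lower, against 21.5 and 15.1%. No member passed without BAT vehicle array 2 or without WAT vehicle array 2, where 7.49 and 8.82% of features were higher, and 4 did without BAT vehicle array 3, where 12.0% were. Tissue and slide cannot be told apart here, and the median difference of the members, 0.19, had the opposite sign under 1 other scaling.

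Genes of neighbouring pathways were read from 4 further lists. None of their members passed the limma threshold between AP20187 and vehicle in either tissue. At an unadjusted p under 0.05 in white fat, 5 isoprenoid genes were higher, 4 sterol handling genes higher and 1 lower, and 2 fatty acid genes higher, where 16.2% of all features were higher and 6.08% lower. In brown fat 1 sterol handling gene was higher and 1 lower at that level, with 0 of the isoprenoid and fatty acid genes, against 3.7 and 3.67% of all features. Of the 13 genes of the isoprenoid branch, 11 had a change above 0 in white fat (median 0.37) and 5 in brown fat (median -0.03). In white fat Nus1, a subunit of the prenyltransferase that makes dolichol precursors, had a change of 0.97 (SE 0.24) and Icmt, which methylates prenylated proteins, one of 0.90 (SE 0.26). In brown fat Rabggtb, a subunit of the Rab geranylgeranyl transferase, had a change of 0.46 and Pdss1, which makes the side chain of coenzyme Q, one of -0.79. Against wild type, 5 of the 13 rose, Nus1 and Icmt among them (1.12 and 1.09), where 7.2% of all features did. No feature passed there with slide as a fixed block.

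Of the 13 fatty acid genes that SREBPs also control, 11 had a change above 0 in white fat, with a median of 0.95, and 0 in brown fat, with a median of -0.41. Mid1ip1, which promotes acetyl-CoA carboxylase activity, measured 7.4, 7.49 and 7.28 on the WAT AP20187 arrays, against 4.95 and 5.24 on the vehicle arrays. Its change there was 2.29 (SE 0.56, limma adjusted p = 0.0652), larger than that of any cholesterol gene, and the groups lay over 2 apart. Against wild type it rose by 2.15 (limma adjusted p = 0.0371), the 1 fatty acid gene of 13 that did, where 7.2% of all features rose. As given above, the calls against wild type depend on the scaling, and no feature passed with slide as a fixed block. Me1, malic enzyme, had a change of 1.14 (SE 0.48) in white fat. In brown fat Acly, ATP citrate lyase, had a change of -1.74 (SE 0.80) and Scd2, a fatty acid desaturase, one of -1.59 (SE 0.84). None of these brown fat changes passed the threshold.

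Of the 17 genes of sterol esters, efflux and handling, 11 had a change above 0 in white fat (median 0.27) and 9 in brown fat (median 0.01). Gramd1b, which moves cholesterol from the plasma membrane to the ER, measured 2.56 and 3.68 on the BAT AP20187 arrays, against 0.32 and 0.02 on the BAT vehicle arrays. The groups lay more than 2 apart, with a change of 2.95 (SE 0.35, limma adjusted p = 0.0913). In white fat it measured 2.47, 2.48 and 2.27 with AP20187, against 1.54 and 1.02 with vehicle, a change of 1.13 (SE 0.32, limma adjusted p = 0.0906). It lay higher with AP20187 in both tissues, with no overlap in either. The change in white fat minus that in brown fat was -1.82 (SE 0.47, limma adjusted p = 0.142). Cyp27a1, a mitochondrial sterol hydroxylase, had a change of -0.97 (SE 0.27, limma adjusted p = 0.0899) in white fat, and Nceh1, a cholesterol ester hydrolase, -0.55 in brown fat. Of the 6 ER sterol regulators, 3 had a change above 0 in white fat and 4 in brown fat. Erlin2, an ER membrane protein of the degradation complex, had changes of 0.49 in white fat and -0.29 in brown fat.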

How the data were processed

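Per the labels, total RNA of 13 samples was read on Agilent arrays with a single dye, Cy3. The deposited scanner files hold, per the file headers, a processed signal, an intensity that Agilent Feature Extraction 10.7.1.1 (also in the submitters' processing notes) had corrected for background within each array and not scaled between arrays. A second table of intensity, the authors' own value table, equalled that signal within 0.1% for 98.97 to 99.18% of its values, which shows a linear scale with no centring. Its column medians were 48.7, 32.8 and 91.6 for WAT AP20187 arrays 1 to 3, 97.5 and 83.8 for the WAT vehicle arrays, 89.7, 94.2 and 88.1 for the wild-type arrays, 59.7 and 52.4 for BAT AP20187 1 and 2, 52.1 and 57.7 for BAT vehicle 2 and 3, and 105 for the array in no group. Low cells of that table are blank. Counted with any values not above 0, they made up 18.1, 14.9 and 32.8% on WAT AP20187 arrays 1 to 3. The share was 20.6 to 30.3% on the WAT vehicle and wild-type arrays and 35.7 to 40.4% on the grouped BAT arrays. The medians leave these cells out, so they do not compare the brightness of the arrays.

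Each processed signal was put on the log2 scale and the 75th percentile of its array was taken off, after control and outlier spots were left out and spots of a probe averaged. Of 55681 probes, 26056 matched the RefSeq accession of 1 gene, 0 of several and 29625 of none (RefSeq names of GRCm38.p6, while the files use mm9). Probes were kept where all arrays of some group read them well above background, with the brightest probe of each gene, which gave 24459 features. The members had 42 probes, and 13 members had several. The probes of 11 of these 13 had changes of the same sign in white fat. The exceptions were Mylip and Ggps1, whose dimmer probe had a weak-area spot on AP20187 array 2. In brown fat the probes of 9 of 13 did, with Ggps1, Fdft1, Hsd17b7 and Mbtps1 as the exceptions. Acat2 and Nsdhl lack AP20187 array 2 and Npc2 lacks AP20187 array 1 in white fat, and the fit dropped those values.

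The 12 arrays in 5 groups were fitted in 1 model with limma 3.58.1 under R 4.3.3, with Benjamini-Hochberg adjustment over all features and a threshold of 0.05, for 6 comparisons. The pipeline was tested on simulated data. Precision is limited by how few arrays there are. The 13th array has brown fat in its title and white fat in its source name. The alternatives were other scalings, filters and probe rules, slide and replicate number as blocks, the 13th array as vehicle of one tissue or the other, and each array left out. Leaving out areas of weak signal (regions where many spots had lost their signal) was chosen after seeing the data.

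The members, the lists of other pathway genes and the marker lists were chosen with earlier results of these data known. Values on every array are given for Hmgcs1, Idi1, Fdps, Sqle, Cyp51, Msmo1, Stard4, Insig1, Insig2, Srebf2, Npc1 and Mylip and for the 4 members with the smallest p in each comparison. Of each other list, the 2 genes with the smallest p in white and in brown fat are named, except for a result that is not reported here. Dhcr7, Mbtps2 and others are named as exceptions to a count, and array values of Gramd1b and Mid1ip1 were chosen after they were seen.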

Additional observations from a re-analysis of the deposited data

Results flagged for a closer look

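Stard4, the sterol carrier, was singled out because its AP20187 arrays lay above every vehicle array in white fat and below every one in brown fat. It was the 1 member of 29 with this pattern, which 7.04% of all features had. No feature passed the threshold for a difference between the tissues. The change in white fat minus that in brown fat was 1.61 (SE 0.39, limma adjusted p = 0.142), with a change of 0.87 in white fat and -0.73 in brown fat. It was 1.18 to 2.04 when any 1 array was left out. In brown fat AP20187 array 1, which lay lowest, had a skeletal muscle marker mean of 4.03, against 3.08 on AP20187 array 2 and 0.59 and 4.80 on the vehicle arrays. The part of muscle RNA was not tested.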

How the results depend on the processing

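Across the 27 alternatives (26 for brown against white fat) the median change of the 29 members moved by less than the spread between arrays in every comparison. Between AP20187 and vehicle it was 0.84 to 1.14 in white fat with 1 array left out and 0.68 to 1.07 under the others, and in brown fat it was -0.54 to 0.15, so its sign there rests on single arrays. Brown against white fat with vehicle ranged over -0.11 to 0.36, so its sign does as well. With scaling to the percentile of detected probes alone, the median of all features in white fat between AP20187 and vehicle was -0.16 instead of 0.15, and the members' median minus that of all features was 0.83 under both and 0.65 to 0.83 over all scalings.

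The counts of members past the threshold moved more. The share of all features called also changes with the fit and is not given beside each count here. These counts therefore describe the fits and are not results about the members. Between AP20187 and vehicle in white fat, where 0 passed, there were 3 with no filter, 2 with probes well above background on all 12 arrays, 1 with the mean of a gene's probes, 1 with slide as a random block (estimated correlation -0.25), 4 with the 13th array as WAT vehicle, and 0 to 5 with 1 array left out. Against wild type, where 3 passed, there were 0 with the detected percentile, quantile scaling, normexp, the authors' value table, only the compared arrays, slide as a fixed block, or the 13th array as BAT vehicle. There were 5 with no filter, 10 with the filter on all 12 arrays and 24 with slide as a random block. There were 6 with the 13th array as WAT vehicle and 0 to 12 with 1 array left out. The random block used the negative correlation given above, and the AP20187 and wild-type arrays share no slide. How far this sets the count of 24 was not tested. For brown against white fat, where 1 passed, there were 3 with the detected percentile (1 higher in BAT, 2 lower), 4 with quantile scaling (1 higher, 3 lower), 5 with normexp (2 higher, 3 lower), 2 with no filter, 0 with the mean of probes, 0 with only the compared arrays, 2 with slide as a random block, 0 and 2 with the 13th array as BAT or WAT vehicle, 4 without WAT AP20187 arrays 1 and 2, 2 without weak areas, and 0 to 4 with 1 array left out. The cause was not tested. In this last comparison slide as a fixed block could not be fitted.

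Same-numbered arrays of the AP20187 and vehicle groups in white fat had correlated deviations of 0.10 and -0.04. With 2 vehicle arrays, the deviations of one mirror those of the other, so other-numbered pairs take the opposite values by construction. This check therefore cannot tell whether the numbers pair the arrays. With the replicate block the median change there was 1.07 with 0 members past the threshold, and against wild type 0 members passed. Few arrays per group limit every statement here, and members dim on the array are less certain.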

Other observations

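The array with contradictory tissue labels entered no group of the main fit, only the alternatives that took it as vehicle of one tissue or the other. Its 29 members had a median level of 2.51 and its synthesis genes 2.78. Hmgcs1 measured 6.49 there, Fdps 4.73, Sqle 2.98, Insig1 1.59 and Stard4 0.69. Its brown adipocyte markers averaged 0.53, against -0.54 to 1.81 on the WAT arrays and 7.0 to 8.52 on the BAT arrays. Its 10 epididymis markers averaged -5.97.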
